A study of Mus musculus with 2 samples.

Results

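Inhibins and activins are dimeric hormones built from the subunits encoded by Inha, Inhba and Inhbb, and the genes described here are these 3 together with Fst and Tgfbr3. Fst encodes follistatin, which binds activins, and Tgfbr3 encodes betaglycan, a membrane co-receptor. All transcript models that carry one of these 5 gene symbols were kept, whatever their reads. The 5 genes are among 16945 annotated genes with at least 1 read in either library, and all 5 were read in replicate 1 and 3 in replicate 2.

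An alpha subunit joined to a beta subunit gives an inhibin, and a pair of beta subunits gives an activin. Activins bind type II and then type I receptor kinases and act through Smad proteins, while inhibin, held by betaglycan, occupies the type II receptor without starting that signal. In the adrenal gland the alpha subunit is made in steroid-producing cells of the cortex, and mice that lack Inha develop adrenal cortical tumours after gonadectomy.

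RNA of adrenal glands from female B6CASTF1/J mice, a first-generation hybrid of the C57BL/6J and CAST/EiJ strains, was sequenced as long reads at 36 days of age. Both libraries belong to this 1 group, with no treatment and no mutant allele in the labels, so the design compares no conditions. They are numbered biological replicates 1 and 2, and replicate 1 started from 1 µg of RNA while the sources used here state no amount for replicate 2. Because one label gives both libraries the same donor and another gives them different animal numbers, spread and p-values refer to these libraries and may be technical.

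Replicate 1 had 1144572 reads on annotated genes and replicate 2 had 414588, a 2.76-fold difference in depth. A level is given in CPM, the reads of a gene per 1000000 reads of annotated genes, and 3 reads, the floor for absence, equal 2.62 CPM in replicate 1 and 7.24 CPM in replicate 2. Intervals are 95% Wilson intervals unless stated, and intervals and floors cover counting error only. All 6 adrenal cortex markers were read, at a summed 63922 CPM in replicate 1 and 82233 CPM in replicate 2, and the 5 medulla markers summed to 9944 and 6739 CPM. Granulosa cells of the ovary are the best known source of inhibin. None of 6 ovary markers (Cyp19a1, Fshr, Lhcgr, Amh, Foxl2 and Zp3) had a read in either library.

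The junctions that carry the coding sequence of the subunits are shown first, because a read that crosses one of them is a spliced transcript of that gene. Each sequence runs 5′ to 3′ across the junction between the exons that hold the coding sequence, with the last 25 bases of the upstream exon in lower case and the first 25 of the downstream exon in capitals. They were read from the GENCODE M21 transcripts of build mm10 (GRCm38). The Inha junction joins exons 1 and 2 on the plus strand of chromosome 1, at chr1:75507494-75507518 and chr1:75509334-75509358. The Inhba junction joins exons 4 and 5 on the plus strand of chromosome 13, at chr13:16017659-16017683 and chr13:16026243-16026267, and the Inhbb junction joins exons 1 and 2 on the minus strand of chromosome 1, at chr1:119420627-119420651 and chr1:119418073-119418097.
Inha-201: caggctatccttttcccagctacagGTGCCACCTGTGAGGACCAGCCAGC
Inhba-201: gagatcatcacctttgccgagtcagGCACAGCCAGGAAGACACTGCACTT
Inhbb-201: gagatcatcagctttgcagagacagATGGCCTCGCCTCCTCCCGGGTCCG
In the part before the junction, Inhba and Inhbb, whose products are both beta subunits, share 22 of 25 bases. The introns between these exons are 1815 bp long in Inha, 8559 bp in Inhba and 2529 bp in Inhbb.

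The 5 genes had 95 reads in 27 transcript models in replicate 1 and 36 reads in 13 models in replicate 2. Their summed level was 83.0 CPM in replicate 1 and 86.8 CPM in replicate 2, a mean of 84.9 ± 2.71 CPM (SD, n = 2). The sum hid unlike parts. Tgfbr3 and Inha made up most of it in both libraries, Fst was read 15 times against 1, and the beta subunits were read in replicate 1 alone, 4 times each. In replicate 1 the intervals of Inha and Tgfbr3 overlapped, both lay above that of Fst, and that of Fst overlapped those of the beta subunits. In replicate 2 the interval of Tgfbr3 lay above that of Inha, which overlapped that of Fst. In whole-tissue RNA, fewer cells of a type and less RNA per cell cannot be told apart.

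**Figure D1:**
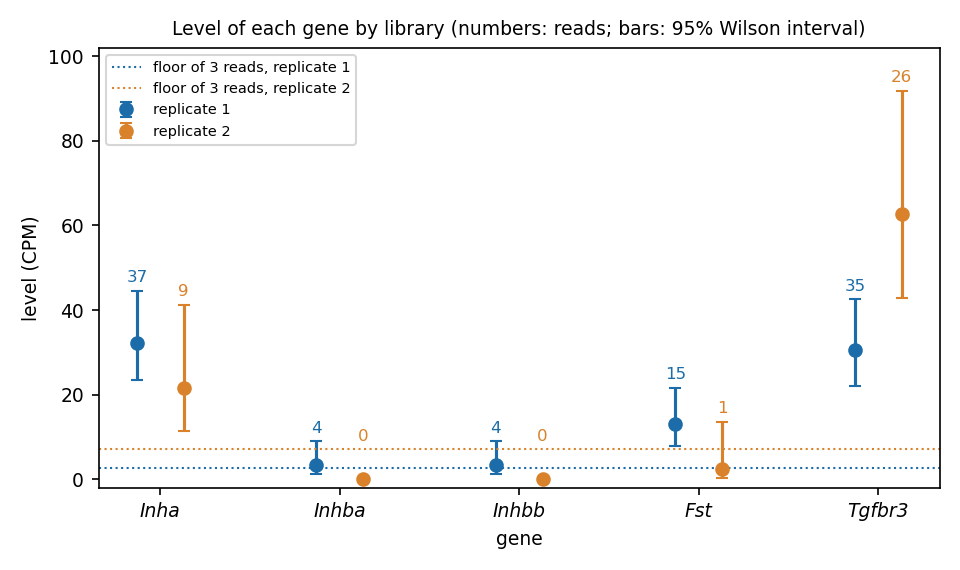
Level of each gene in CPM, with replicate 1 left of replicate 2. Points are the measured levels, bars the 95% Wilson intervals of levels above 0, digits the reads, and dotted lines the 3-read floor of each library. Tgfbr3 is the highest gene in replicate 2 at 62.7 CPM, while Inha at 32.3 CPM and Tgfbr3 at 30.6 CPM lie close in replicate 1.

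Inha, the gene of the alpha subunit, was the subunit gene with the most reads. The gene (ENSMUSG00000032968.4) lies at chr1:75507077-75510366 on the plus strand. It had 37 reads in replicate 1 and 9 in replicate 2, or 32.3 CPM (23.5 to 44.6) and 21.7 CPM (11.4 to 41.3). Both levels were above the floor of their library and their intervals overlapped. The mean was 27.0 ± 7.51 CPM (SD, n = 2). Inha stood at the 69.0th percentile of all genes read in replicate 1 and at the 55.0th in replicate 2. Long transcripts are read less often, so each gene was also ranked among genes whose most read annotated transcript falls in the same length class. Among 3201 genes with a transcript of 1 to 2 kb in replicate 1, Inha stood at the 52.0th percentile, and among 2877 in replicate 2 at the 39.5th.

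For each of the 9885 genes with at least 10 reads, a two-sided exact binomial test set the split of its reads between the libraries against that given by TMM-scaled library sizes, with Benjamini-Hochberg adjustment over all of them. The test compares these 2 libraries, not conditions. Inha, Fst and Tgfbr3 had enough reads to be tested, and 1 of the 3 passed an adjusted p of 0.05, on a background of 14.0% of all genes tested (1383 genes), 6.13% being higher and 7.86% lower in replicate 1. With 3 genes tested, that count says nothing about the genes as a group. For Inha the ratio of replicate 1 to replicate 2 was 1.42 (95% exact interval 0.672 to 3.34), with an adjusted p of 0.688. On the log2(CPM + 1) scale it was 0.48, and the median absolute difference of all genes tested was 0.49.

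Most Inha reads were in full-length models. A model is called full-length here when it matches an annotated splice chain (class Known), recombines annotated splice sites (NIC) or uses an unannotated one (NNC). Incomplete splice matches (ISM) hold a consecutive part of an annotated chain, and Genomic models match no chain. Full-length models held 33 of 37 Inha reads in replicate 1, 89.2% (75.3% to 95.7%), and 9 of 9 in replicate 2, 100% (70.1% to 100%). All annotated genes together had 81.9% and 75.7%. The single annotated isoform, Inha-201, has 2 exons, 1475 bp and a coding sequence of 366 codons. It took 32 of the 33 full-length reads in replicate 1, 97.0% (84.7% to 99.5%), and 8 of 9 in replicate 2, 88.9% (56.5% to 98.0%). This model holds the whole coding chain, across the Inha junction printed above. The counts used here do not give the ends of single reads, so whether each read covers that chain from start to stop is not known.

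The remaining Inha reads came from 3 models. In replicate 1, 4 reads formed a Genomic model of 1 exon and 1384 bp, at chr1:75508983-75510366, which begins within the intron and runs to the annotated end. The other models are NNC with 1 read each, a 3-exon model of 3045 bp in replicate 1 and a 2-exon model of 1701 bp in replicate 2. Both begin at chr1:75505641, which is 1436 bases upstream of the annotated start of Inha, and this base is also an annotated 5′ end of Obsl1 on the opposite strand. It is the start of the models, and whether the reads themselves begin there is not known. Obsl1 encodes a cytoskeletal adaptor protein and had 22 reads in replicate 1 and 11 in replicate 2. The 3-exon model adds an exon within Inha's intron. This exon is set between introns at chr1:75507519-75508849, which uses the annotated donor of exon 1, and at chr1:75508984-75509333, which uses the annotated acceptor of exon 2, and the Genomic model above begins at its last base. The 2-exon model skips exon 1 and joins an unannotated donor to that same acceptor through an intron at chr1:75506309-75509333. Neither model was found in the other library.

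Inhba, the gene of the beta A subunit, was close to the limit of detection. The gene (ENSMUSG00000041324.14) lies at chr13:16011851-16031621 on the plus strand. It had 4 reads in replicate 1, or 3.49 CPM (1.36 to 8.99). In replicate 2 it had 0 reads, with an interval up to 9.27 CPM and a floor of 7.24 CPM. The level in replicate 1 lay above the floor of its own library and below the floor of replicate 2. At the depth of replicate 2, 4 reads scale to 1.45 reads, so a difference was not detectable and no fold is given. The mean was 1.75 ± 2.47 CPM (SD, n = 2).

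None of the 4 Inhba reads matched an annotated isoform from end to end. Inhba-201 has 5 exons and 6390 bp and Inhba-202 has 3 exons and 1529 bp, both with the same 424 codons, and each had 0 reads. An NIC model of 3 exons and 2007 bp took 2 reads. It keeps a 109-bp intron at chr13:16012091-16012199 and then joins annotated splice sites in a new pair, through an intron at chr13:16012387-16017181. The other 2 reads were an ISM of the 3′ end, with 2 exons and 1471 bp. Both models cross the Inhba junction printed above and hold the whole coding chain. Where their 4 reads begin and end is not given. Antisense genes B230303A05Rik and Gm48444 overlap Inhba and had 0 reads in both libraries.

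Inhbb, the gene of the beta B subunit, had the same low count, but all of it in the annotated isoform. The gene (ENSMUSG00000037035.5) lies at chr1:119415465-119422248 on the minus strand. It had 4 reads in replicate 1, or 3.49 CPM, and 0 in replicate 2, with the same mean, limits and lack of a test as Inhba. All 4 reads were assigned to Inhbb-201, with 2 exons, 4255 bp and 411 codons. This model holds the whole coding chain across the Inhbb junction, but the ends of its reads are not given. Among 2526 genes with a transcript over 4 kb in replicate 1, Inhbb stood at the 12.8th percentile. In replicate 1, where both could be seen, the alpha subunit had 37 reads against 4 for each beta subunit, and the interval of Inha began at 23.5 CPM, above the 8.99 CPM at which those of Inhba and Inhbb ended. In replicate 2 the interval of Inha (11.4 to 41.3 CPM) also lay above the 9.27 CPM at which those of Inhba and Inhbb ended, and above the floor of 7.24 CPM.

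**Figure D2:**
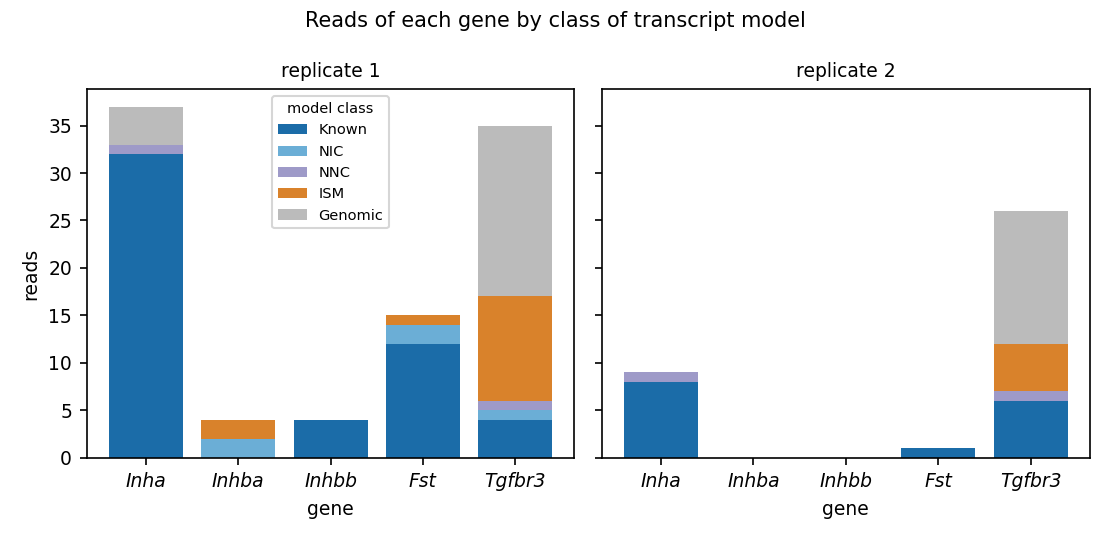
Reads of each gene, stacked by class of transcript model, with replicate 1 in the left panel and replicate 2 in the right. Inha and Fst are mostly Known models in replicate 1, with 32 of 37 and 12 of 15 reads, while Genomic and ISM models hold 29 of 35 Tgfbr3 reads in replicate 1 and 19 of 26 in replicate 2.

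Follistatin wraps around activin and blocks its contact with receptors, and its precursor is known in a longer form with an acidic tail and a shorter form without it. The forms part at the last junction, printed here with the last 25 bases of exon 5 in lower case and the first 20 of exon 6 in capitals. Exon 5 ends at chr13:114454280-114454304 on the minus strand. The last exon begins at chr13:114453486-114453505 in Fst-201 and 300 bp nearer, at chr13:114453786-114453805, in Fst-202, which leaves introns of 774 bp and 474 bp.
Fst-201: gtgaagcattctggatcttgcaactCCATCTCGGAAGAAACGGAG
Fst-202: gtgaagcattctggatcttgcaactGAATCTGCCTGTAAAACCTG
In Fst-202 the last base of exon 5 and the first 2 bases of exon 6 form the stop codon TGA, so its coding sequence has 317 codons. Fst-201 reads on into exon 6 and ends at a TAA after 344 codons.

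Fst had more reads in replicate 1, but the difference did not pass the test. The gene (ENSMUSG00000021765.9) lies at chr13:114452290-114458951 on the minus strand. It had 15 reads in replicate 1, or 13.1 CPM (7.94 to 21.6), and 1 read in replicate 2, or 2.41 CPM (0.426 to 13.7). The level in replicate 1 was above its floor, the single read in replicate 2 was below the floor of 7.24 CPM, and the intervals overlapped. The mean was 7.76 ± 7.56 CPM (SD, n = 2). The ratio of replicate 1 to replicate 2 was 5.17 (95% exact interval 0.796 to 218), with an adjusted p of 0.287 in the exact binomial test. In replicate 1 Fst stood at the 52.0th percentile of all genes read and at percentile 35.1 among those with a transcript of 1 to 2 kb.

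Fst, Inhba and Inhbb had more reads in replicate 1, the deeper library, but Fst did not pass the test and Inhba and Inhbb were not tested. Markers of skeletal muscle, of medulla and of capsule and stroma had higher summed CPM in replicate 1. Endothelial markers were nearly level in sum, at 385 and 379 CPM, with Emcn alone called, as higher in replicate 1. All 4 skeletal muscle markers passed the test, with 941 reads in replicate 1 and 2 in replicate 2, or 822 and 4.82 CPM, and Tnnc2 and Atp2a1 were at 0 in replicate 2. Of the 5 medulla markers, at 9944 and 6739 CPM, 3 passed as higher in replicate 1. Of the 5 capsule and stroma markers, at 529 and 326 CPM, Col3a1 alone passed, also as higher in replicate 1. No marker of the medulla list or of the capsule and stroma list was at 0. The part of any of these cell types in the counts of Fst, Inhba and Inhbb was not tested.

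Both coding forms of follistatin were read in replicate 1. Of 14 full-length reads there, Fst-201 (6 exons, 1851 bp) took 9, or 64.3% (38.8% to 83.7%), and Fst-202 (6 exons, 2833 bp) took 2, or 14.3% (4.01% to 39.9%). The only read of replicate 2 was Fst-201. Fst-203, annotated as a retained-intron transcript of 2 exons and 673 bp, had 1 read in replicate 1, and the other 3 of the 6 annotated isoforms had 0 in both libraries. An NIC model of 6 exons and 1776 bp had 2 reads in replicate 1. It takes the exon 5 start of Fst-205, which lies 3 bp downstream of that in Fst-201, and the last splice acceptor of Fst-202, and its coding sequence ends after 316 codons. The 2 exon 5 starts are printed with the last 25 bases of exon 4, at chr13:114455121-114455145, in lower case and exon 5 in capitals, up to the same last base at chr13:114454486-114454510 and chr13:114454486-114454507.
Fst-201 exons 4 and 5: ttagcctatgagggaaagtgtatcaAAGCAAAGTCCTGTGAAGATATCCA
Fst-205 exons 4 and 5: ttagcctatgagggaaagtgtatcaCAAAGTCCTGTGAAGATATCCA
At the last junction, the acceptor of Fst-201 was used by 9 reads of Fst-201 and the 1 read of Fst-203 in replicate 1, and that of Fst-202 by 2 reads of Fst-202 and 2 of the NIC model.

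One further Fst read of replicate 1 was an ISM model that keeps the 774-bp intron at chr13:114453506-114454279. Models with a whole annotated coding chain took 11 of 15 Fst reads in replicate 1, 73.3% (48.0% to 89.1%), and the 1 read of replicate 2. The antisense gene Gm47040 overlaps the 5′ end of Fst by 289 bp and had 1 read in each library. Unannotated antisense loci within Fst had 3 reads in replicate 1 and 1 in replicate 2, no more than the floor of either library.

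Counting all reads, Tgfbr3 had the highest mean level of the 5 genes, though not the highest level in replicate 1, and it passed the test between libraries, as lower in replicate 1. Betaglycan presents TGF-beta ligands to their receptors and raises the affinity of inhibin for type II activin receptors. The gene (ENSMUSG00000029287.14) lies at chr5:107106570-107289629 on the minus strand. It had 35 reads in replicate 1, or 30.6 CPM (21.99 to 42.5), and 26 in replicate 2, or 62.7 CPM (42.8 to 91.9), with intervals that did not overlap. The mean was 46.6 ± 22.7 CPM (SD, n = 2). The ratio of replicate 1 to replicate 2 was 0.464 (95% exact interval 0.271 to 0.803), a log2 ratio of −1.08 with an adjusted p of 0.0372 in the exact binomial test.

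That call depended on which reads were counted and how they were scaled. Without Genomic reads, which were 18 of 35 in replicate 1 and 14 of 26 in replicate 2, the log2 ratio was −1.05 with an adjusted p of 0.190 in the same exact binomial test. With library totals in place of TMM it was −1.01 with an adjusted p of 0.0571. Of 2881 genes with 30 to 80 reads, 8.68% passed the test. With full-length models alone it was −1.67 with an adjusted p of 0.114. Markers of several cell types also had lower sums in replicate 1, with none at 0. Adipocyte markers summed to 3176 CPM in replicate 1 and 5495 CPM in replicate 2, with 2 of 4 called lower. Most of that gap was Fabp4, at 771 and 2914 CPM, while Plin1 was at 348 and 277 CPM. X-zone markers summed to 10779 and 13522 CPM, with 2 of 4 called lower. Adrenal cortex markers summed to 63922 and 82233 CPM, with 2 of 6 called lower and 1 higher, and Cyp11a1 was at 20811 and 41366 CPM, a wider gap than that of the sum. Zona glomerulosa markers summed to 723 and 755 CPM, with Dab2 alone called lower. The part of any of these in the Tgfbr3 ratio was not tested.

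**Figure D3:**
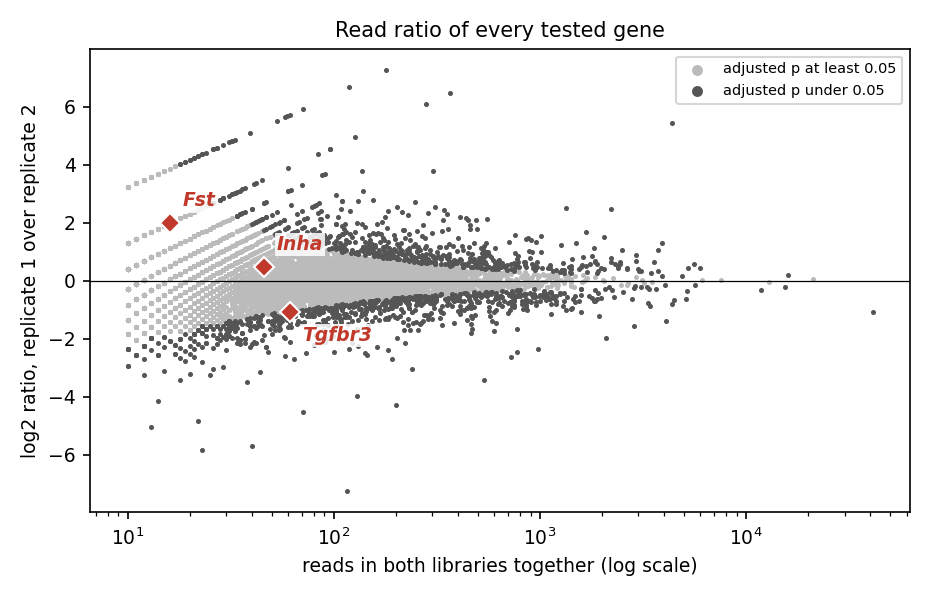
Log2 ratio of replicate 1 over replicate 2, on the log2(CPM + 1) scale, against reads in both libraries together on a log axis, for 9885 genes. Dark points have an adjusted p under 0.05 in the exact binomial test. Tgfbr3 at −1.08 lies in the called part below 0, and Inha at 0.48 and Fst at 1.99 lie among genes that did not pass.

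Few Tgfbr3 reads were in full-length models, which need not hold the whole coding sequence. Full-length models held 6 of 35 reads in replicate 1, 17.1% (8.10% to 32.7%), and 7 of 26 in replicate 2, 26.9% (13.7% to 46.1%). The libraries differed by −9.78 percentage points, with an adjusted p of 0.858 in a two-sided Fisher's exact test over 3694 genes, of which 14.4% passed. Tgfbr3 was the only one of the 5 genes with the 20 reads in each library that this test required. Its intervals lay below the 81.9% and 75.7% of all annotated reads, while those of Inha, 89.2% in replicate 1 and 100% in replicate 2, did not lie below them. These shares were not matched for transcript length. Among pathway genes with a transcript over 4 kb they ran from low to high in replicates 1 and 2. As examples, Smad3 had 9.09% and 0%, Furin 9.52% and 41.2%, and Smad5 30.8% and 20%. Pcsk5 had 70.5% and 64%, Smad2 88.2% and 96.3%, and Bambi 100% and 90.9%. Other genes of this list and length are not given here. Tgfbr3 stood at the 72.6th percentile of 2526 genes with a transcript over 4 kb in replicate 1 and at the 86.6th of 2336 in replicate 2, counting all its reads. The order of the means of Tgfbr3 and Inha turned under 3 other ways of counting. It was 14.4 for Tgfbr3 and 31.9 for Inha per 1000000 full-length reads, 23.7 and 27.2 CPM without Genomic reads, and 27.0 and 30.1 CPM with models of more than 1 exon.

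The annotated transcript with the whole coding sequence (ENSMUST00000031224.14) has 17 exons, 6087 bp and 850 codons. It had 1 read in replicate 1 and 4 in replicate 2. Models with a whole coding chain thus took 1 of 35 reads, 2.86% (0.506% to 14.5%), and 4 of 26, 15.4% (6.15% to 33.5%). A retained-intron transcript of 7 exons and 1368 bp (ENSMUST00000146591.1) had 3 reads in replicate 1 and 2 in replicate 2, so that both isoforms had 5 reads in all. Its junctions are the first ones of the 17-exon transcript, and its last exon runs on from base 107148026 to base 107147980, inside the intron. A piece of the 17-exon transcript that stopped there would have the same splice chain, so the 2 cannot be told apart by chain. The 17-exon transcript took 16.7% of full-length reads in replicate 1 and 57.1% in replicate 2, with intervals that overlapped, and the 7-exon transcript took 50% and 28.6%. The other 2 annotated isoforms had 0 reads. A test of the leading isoform needed 20 full-length reads in each library, which none of the 5 genes reached, and 1.03% of 3015 genes passed it.

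Reads were spread unevenly along Tgfbr3. The last exon had the most reads in both libraries, and the first exons had more than the middle in replicate 1 but not in replicate 2. Counted by the exons of their models, 15 reads of replicate 1 touched exon 1, 16 touched exon 17 and 1 touched both. In replicate 2, 7 touched exon 1, 22 touched exon 17 and 5 touched both. Reads that held the first exon without the last numbered 14 in replicate 1 and 2 in replicate 2, while those that held the last without the first numbered 15 and 17. At exon 8 there were 3 reads in replicate 1 and 7 in replicate 2. Of the reads on exon 17, 12 in replicate 1 and 13 in replicate 2 were Genomic models of 1 exon, of 2072 bp at chr5:107106570-107108641 and of 288 bp at chr5:107106570-107106857, and neither holds a coding base.

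**Figure D4:**
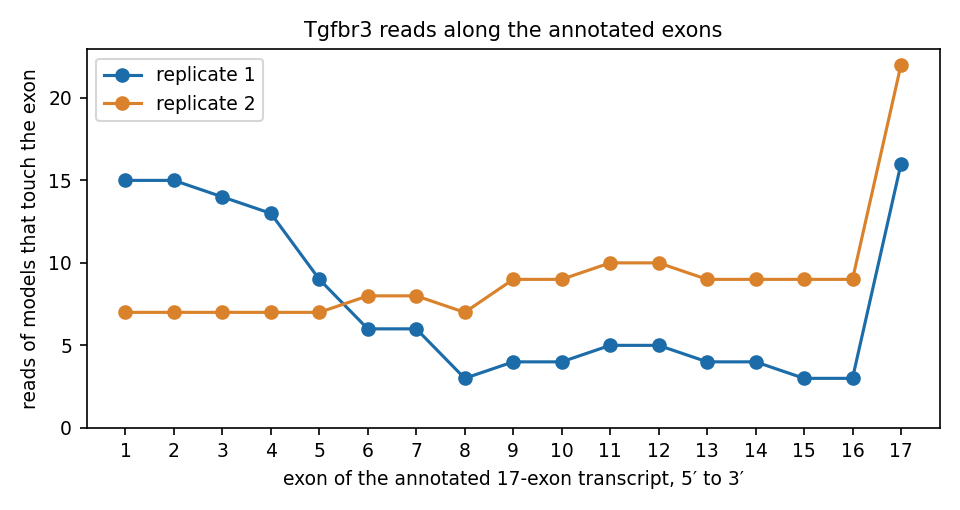
Tgfbr3 reads whose model touches each of the 17 exons of the coding transcript, from 5′ to 3′, by replicate. Replicate 1 drops from 15 reads on exon 1 to 3 on exon 8 and reaches 16 on exon 17, while replicate 2 runs between 7 and 10 up to exon 16 and reaches 22 on exon 17.

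Several reads of replicate 1 with the first exon ended inside introns. An ISM model of 4 exons with 3 reads ran 413 bases past the end of its last annotated exon, one of 3 exons with 2 reads ran 2470 bases past it, and one of 12 exons with 1 read ran 1839 bases past it. A further ISM model of 5 exons and 1005 bp had 3 reads. Genomic models with 2 or more reads, beside those of exon 17, were limited to a 1-exon model of 1736 bp at chr5:107209346-107211081, with 2 reads in replicate 1. An NIC model of 13 exons with 1 read kept a 462-bp intron at chr5:107139922-107140383. In all, 4 reads of replicate 1 and 1 of replicate 2 touched no exon of the 17-exon transcript.

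A single splice site outside the annotation was read in both libraries. It ends exon 16 of 17 at base 107118415 in place of 107118419, which adds 4 bases, and splices to the annotated start of exon 17 through an intron of 8657 bp at chr5:107109758-107118414. It occurred in 1 read of replicate 1, an NNC model of 9 exons, and in 1 read of replicate 2, an NNC model of 17 exons and 6057 bp. The exon end is printed from chr5:107118407-107118443 on the minus strand, with the 4 added bases in capitals after 25 bases of the annotated exon. It was read from another annotated Tgfbr3 transcript, whose exon runs past this site.
Tgfbr3 exon end: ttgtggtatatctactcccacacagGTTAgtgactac
The bases GT follow both the annotated end and the shifted one. With the added bases the frame of the 17-exon transcript runs into a TAG stop after 812 codons, against 850 in the annotated form. Apart from this site, the NNC model of replicate 2 has the splice sites of the annotated 17-exon transcript.

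The rest of the pathway was described on a list of 43 genes grouped by role, from ligands to convertases. Of these, 37 had a read, 32 in both libraries, and 28 had at least 3 reads in each. Between the libraries 26 were tested, and 0 were called higher and 1 lower in replicate 1 by the exact binomial test, on the same background of 14.0%. The median log2 ratio of those tested was −0.088, and that of all genes tested was 0.0074.

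Type II and type I receptors of activin had few reads. Acvr2b, an activin type II receptor, was at 5.24 CPM in replicate 1 and 9.65 CPM in replicate 2, while Acvr2a, the other, had 2 and 1 reads. Acvr1b, the type I receptor most used by activins, had 1 read in each, and Acvr1c, which serves activin B, had 5 and 0. Within its length class, Acvr2b stood at percentile 19.9 in replicate 1 and 26.1 in replicate 2, and Acvr2a at 4.59 and 0. Acvr1c stood at percentile 17.6 in replicate 1, and Acvr1b, with Genomic reads only, could not be placed. Bmpr2, the BMP type II receptor, was the gene called, at 2.62 CPM (3 reads) in replicate 1 and 19.3 CPM (8 reads) in replicate 2, a log2 ratio of −2.55 with an adjusted p of 0.0144 in the exact binomial test. None of these Bmpr2 reads was full-length. Tgfbr2, the TGF-beta type II receptor, was at 14.0 and 7.24 CPM. Among type I receptors, Acvr1 was at 12.2 and 16.9 CPM, Bmpr1a at 20.97 and 7.24 CPM and Tgfbr1 at 5.24 and 16.9 CPM, and Bmpr1b had 1 read in replicate 1 and 0 in replicate 2.

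Co-receptors and binding proteins summed to 183 CPM in replicate 1 and 224 CPM in replicate 2, beside Tgfbr3 and Fst. Eng, which encodes endoglin, an endothelial relative of betaglycan, was at 71.6 and 111 CPM, with an adjusted p of 0.0697 in the exact binomial test. Endothelial markers, all 5 of them read, summed to 385 and 379 CPM, and Emcn alone was called, as higher in replicate 1. Fstl3, which like follistatin binds activin, was at 13.1 and 9.65 CPM, and Fstl1, a follistatin-like secreted glycoprotein, was at 85.6 and 72.4 CPM. Bambi, a decoy receptor without a kinase, was at 11.4 and 26.5 CPM. Tgfbr3l, a relative of Tgfbr3 that binds inhibin B in pituitary cells, had 1 read in each library. Wfikkn1 and Wfikkn2, which bind myostatin, had 1 read in 1 library each, and Tdgf1 and Igsf1 had 0 reads in both.

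**Figure D5:**
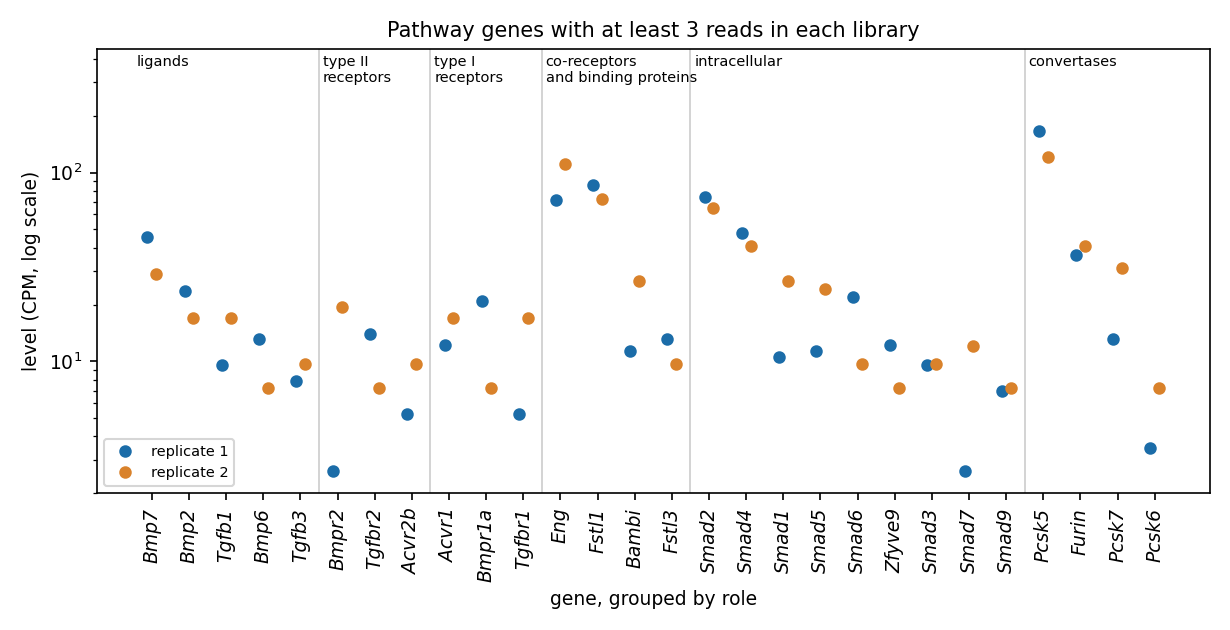
Level in CPM on a log axis of the 28 pathway genes with at least 3 reads in each library, grouped by role and ordered by mean level within a role, with replicate 1 left of replicate 2. Pcsk5 is highest, at 166 and 121 CPM, and the type II and type I receptors lie lower, at most at 20.97 CPM.

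Of the ligands, the activin relatives Inhbc and Inhbe had 0 reads in both libraries, as did Mstn and Tgfb2, and Gdf11 had 0 in replicate 1 and 1 in replicate 2. Bmp7 was the ligand gene with the highest level, at 45.4 CPM in replicate 1 and 28.9 CPM in replicate 2. Bmp2 was at 23.6 and 16.9 CPM, Bmp6 at 13.1 and 7.24 CPM, Tgfb1 at 9.61 and 16.9 CPM and Tgfb3 at 7.86 and 9.65 CPM. None of these 5 was called in the exact binomial test.

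Smad proteins carry the signal to the nucleus. Smad2 and Smad3, which serve activin and TGF-beta receptors, were at 74.3 and 65.1 CPM and at 9.61 and 9.65 CPM, and their partner Smad4 was at 48.1 and 41.0 CPM. Zfyve9, an anchor that brings Smad2 and Smad3 to receptors, was at 12.2 and 7.24 CPM. The BMP-linked Smad1 was at 10.5 and 26.5 CPM, Smad5 at 11.4 and 24.1 CPM and Smad9 at 6.99 and 7.24 CPM. The inhibitory Smad6 was at 21.8 and 9.65 CPM and Smad7 at 2.62 and 12.1 CPM. None of the 8 tested was called, and Smad7 had too few reads to test.

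Proprotein convertases cut the subunit precursors. Pcsk5 had the highest level of the 43 genes, at 166 CPM in replicate 1 and 121 CPM in replicate 2. Furin, the best known convertase of this family, was at 36.7 and 41.0 CPM, Pcsk7 at 13.1 and 31.4 CPM and Pcsk6 at 3.49 and 7.24 CPM. None of the 3 tested was called, and Pcsk6 was not tested.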

How the data were processed

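Per the labels' protocols, RNA went through the ENCODE long-read pipeline for mouse. The authors deposited raw counts, whole reads for each transcript model, with each library processed on its own. Per the file headers and notes, the build was mm10, the annotation GENCODE M21, and TALON the source of the models. Exon numbers and lengths in bp are also the authors' deposited values. Not given in the sources used here are aligner, versions, model filters and any use of strand in counting, so sense and antisense reads cannot be told apart with certainty.

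Counts of models were summed per gene and divided by annotated reads. Spike-ins (2.12% of all reads in replicate 1 and 3.65% in replicate 2) and loci outside the annotation were left out. Total reads were 1223776 and 453761. One read was taken as 1 transcript, so levels were not divided by length. Ratios used edgeR 4.0.16 TMM factors of 1.03 and 0.976 and a pseudocount of 1 CPM. A replicated count model cannot be fitted between single libraries, so exact tests were run in scipy 1.17.1 and checked on simulated counts. Those counts were drawn with counting error alone, so the check does not cover variation beyond it. All members, their annotated isoforms with a read and other models with at least 2 reads were named, as were pathway genes with at least 3 reads in each library or under 3 in both. Models with 1 read, Acvr1c, Obsl1, overlapping antisense genes and single marker genes were named after their values were seen. Members and lists were chosen with earlier results of these data known. Alternatives changed the reads counted, the scaling, the depth, the minimum, the pseudocount and the libraries kept.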

Additional observations from a re-analysis of the deposited data

Results flagged for a closer look

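Unannotated loci antisense to Tgfbr3, which are outside the main measurement, had 30 reads in 11 models in replicate 1 and 7 reads in 4 models in replicate 2. That is 26.2 CPM and 16.9 CPM, above the 3-read floors of 2.62 and 7.24 CPM, and stands beside 35 and 26 reads on the annotated strand. The model with the most reads in each library has 1 exon and lies on the last exon of Tgfbr3, with 11 reads at chr5:107107497-107109281 in replicate 1 and 4 reads at chr5:107106857-107109281 in replicate 2. The same exon holds the 1-exon Genomic models on the annotated strand, with 12 reads in replicate 1 and 13 in replicate 2. No antisense read was found over Inha, Inhba or Inhbb in either library. No control sample exists in this design against which these loci could be set.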

How the results depend on the processing

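Of the 3 genes tested, Tgfbr3 alone was called, with a log2 ratio of −1.08. The call was lost under 6 of 8 alternatives, at a log2 ratio of −1.01 (adjusted p 0.0571) with library totals, −1.67 (0.114) with full-length models, −1.05 (0.190) without Genomic reads, −0.98 (0.220) with models of more than 1 exon, −0.93 (0.238) with reads thinned to equal depth and −1.08 (0.0625) with all genes tested, all by exact binomial test. Fewer reads entered under 4 of these and more genes under the last, and why the call was lost was not tested for any of them. The direction held in all 8, but a smaller pseudocount or testing all genes left the reads and scaling of Tgfbr3 unchanged and could not turn it. The pseudocount does not enter the test, so changing it could not lose the call. Inha and Fst stayed above the threshold wherever tested, at adjusted p of 0.614 to 0.926 and 0.283 to 0.436, and thinned Fst had under 10 reads. The mean level of Tgfbr3, 46.6 CPM, was 14.4 with full-length models, 23.7 without Genomic reads and 27.0 with models of more than 1 exon. The full-length share of Fst was 96.7% as a mean of both libraries and 90% with Known models alone. Leaving out a library gave 21.7 to 32.3 CPM for Inha, 0 to 3.49 CPM for Inhba and Inhbb, 2.41 to 13.1 CPM for Fst and 30.6 to 62.7 CPM for Tgfbr3, shares of 88.9% to 97.0% for Inha-201, 64.3% to 100% for Fst-201 and 16.7% to 57.1% for the 17-exon Tgfbr3 transcript, and full-length shares of 89.2% to 100% for Inha, 93.3% to 100% for Fst and 17.1% to 26.9% for Tgfbr3. Genes called ranged from 987 to 1391, and 43.8% of them were higher in replicate 1, against 52.8% with library totals. With 10 full-length reads as the minimum, still none of the 5 genes could be tested for its leading isoform. Depth limits Inhba, Inhbb and Fst in replicate 2. No paired analysis was possible because both libraries belong to 1 group.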
